A study of Bos taurus with 14 samples.

Results

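Integrins and laminins were followed across 14 cattle RNA-seq libraries. A member was any gene whose symbol was ITGA or ITGB followed by a number or a single letter, or LAMA, LAMB or LAMC followed by a number, with no numbered copy suffix. This gave 35 genes of 24616 features in the 8 later libraries and 32 of 23159 usable features in the other 6 libraries. The names LAMB2, LAMC1 and LAMC3 stood without a suffix in the later files only. The 35 genes are 16 integrin alpha, 7 integrin beta, 5 laminin alpha, 4 laminin beta and 3 laminin gamma chains.

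Integrins are membrane receptors made of 1 alpha and 1 beta chain, and the pair decides which matrix protein is bound. Laminins are secreted trimers of 1 alpha, 1 beta and 1 gamma chain that form the network of basement membranes. In early mammalian embryos the epiblast lies on such a membrane, and laminins that hold the LAMA5 chain are used as a coating for human pluripotent stem cells, which bind them through ITGA6 and ITGB1.

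The stem cells were bovine embryonic stem cells (bESC) derived from blastocysts, grown as lines A and B in CTFR, a custom growth-factor-free basal medium to which FGF2 (20 ng/mL) and IWR1 (2.5 µM), an inhibitor of canonical WNT signalling, had been added. Mouse embryonic fibroblasts (MEFs) served as feeder cells in these wells, and no step that removed them before RNA extraction is described. Each line gave 1 library at passage 10 (P10) and 4 later ones, at P13, P23, P35 and P45 for line A and at P12, P24, P35 and P46 for line B. The P10 libraries were set against 2 libraries of in vivo blastocysts, each a pool of 10 whole embryos, and 1 library from each of 2 lines of skin fibroblasts. With 1 library a line at P10, and later libraries that are serial passages of the same cultures, p-values measure the spread between these libraries only.

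Values are RPKM (read counts corrected for gene length and for the mapped reads of the library), which allow genes to be compared per length. They are printed as scaled RPKM, divided by a factor per library that equalises the middle of the distribution within a set of files, unless deposited RPKM is named. Scaling mattered most in blastocysts, where 2 features took 65.8% and 64.0% of all RPKM and the remaining genes were multiplied by 3.504 and 3.53, against 1.189 and 1.198 in fibroblasts. No read counts are in the files, and from the steps between low values the depth of the first 6 libraries spanned 0.759 to 1.22 times that of blastocyst library A, and that of the 8 later ones 0.71 to 1.03 times that of line A at P13. Every library lists GAPDH at 0, so that any 0 here means listed at 0 and is not read as absence. In bulk RNA, fewer cells of a type and less RNA per cell cannot be told apart.

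The pluripotency, trophectoderm and fibroblast marker sums were highest in bESC, blastocysts and fibroblasts, in that order. The summed level of the pluripotency markers was 608.5 and 478 scaled RPKM in P10 lines A and B and 306 and 257 in blastocysts, against 0.593 and 2.56 in fibroblasts, where POU5F1, NANOG, SALL4 and LIN28B were listed at 0. Blastocysts carried 7 of 8 trophectoderm markers at 1 RPKM or more, with sums of 3358 and 2351 scaled RPKM. In the bESC libraries KRT8 and KRT18 alone of those 8 reached 1 RPKM, and CDX2 was listed at 0 in all 10. Fibroblast markers summed to 107.8 and 217 scaled RPKM in P10 lines A and B, with 6 and 7 of 8 at 1 RPKM or more, 9.40 and 11.2 in blastocysts and 6846 and 7300 in fibroblasts. Keratinocyte markers were higher in blastocysts (66.8 and 68.9) than in the skin fibroblasts (10.5 and 1.75). Hypoblast markers summed to 105 and 138 in blastocysts and to 58.7 and 78.8 in fibroblasts, there nearly all from PDGFRA.

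**Figure D1:**
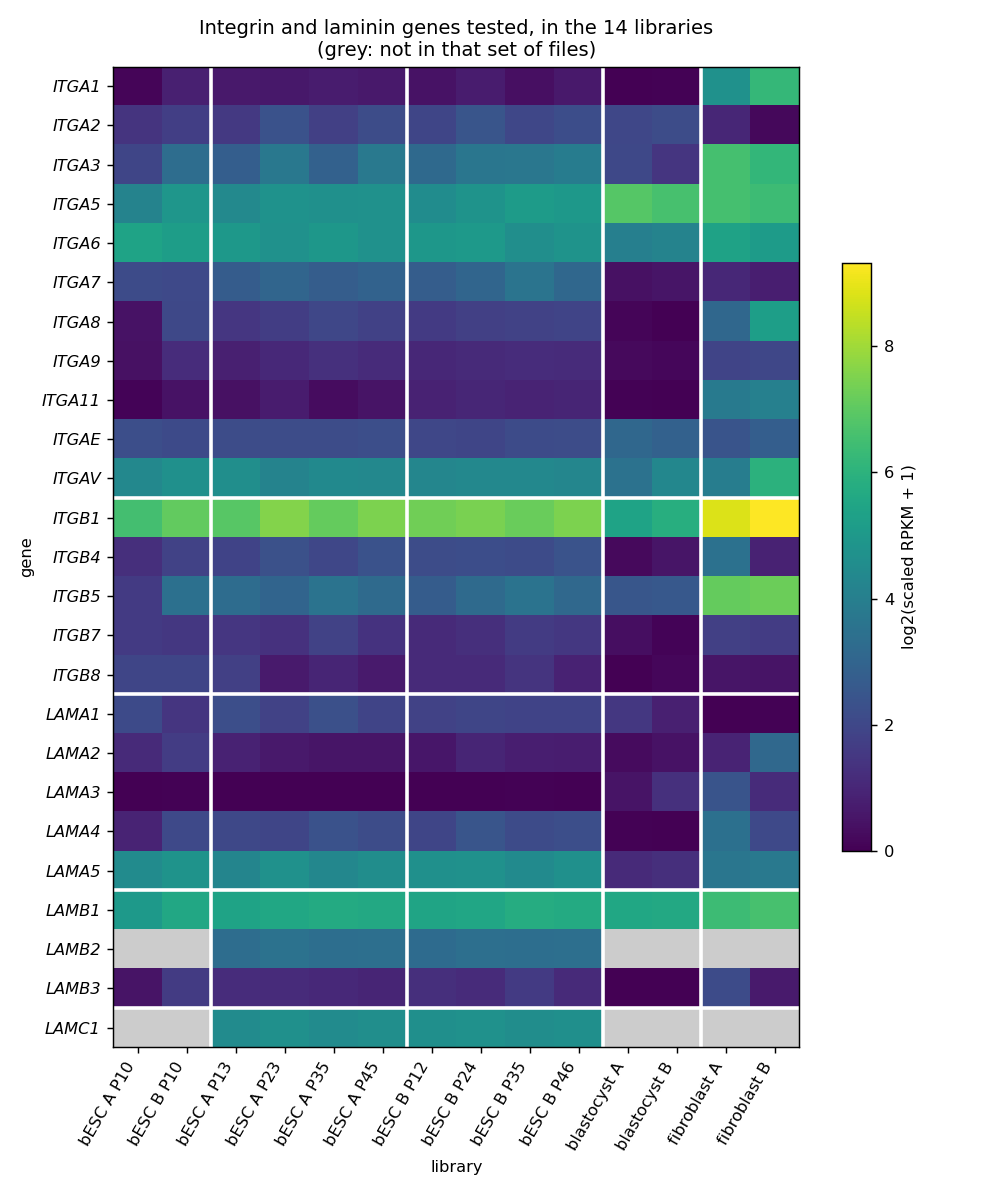
Heat map of log2(scaled RPKM + 1) of the 25 integrin and laminin genes tested in either set of files (down the page, by chain class) in the 14 libraries (columns: bESC at P10, line A later, line B later, blastocysts, fibroblasts); grey cells are names absent from that set of files, and the P10, blastocyst and fibroblast columns were scaled separately from the later ones. ITGB1 is the brightest row in the stem cells and fibroblasts, ITGA5 in the blastocysts, and LAMA5 is brighter in every bESC column than in any other.

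Against fibroblasts, 6 of 11 integrin alpha and 2 of 5 integrin beta chains tested were lower in P10 bESC, while LAMA1, LAMA5 and 3 integrin chains were higher. Of the 32 members in these files, 23 passed the filter of 1 RPKM in 2 libraries and were tested with limma, with Benjamini-Hochberg adjustment over all 11761 genes tested. Of these, 10 were lower and 5 higher in P10 bESC, where 52.3% of all genes tested were called, 25.1% lower and 27.2% higher. The lower ones were ITGA1, ITGA3, ITGA5, ITGA8, ITGA9, ITGA11, ITGB1, ITGB5, LAMA3 and LAMB1, and the higher ones ITGA2, ITGA7, ITGB8, LAMA1 and LAMA5. The median log2 change was -0.65 over the members tested, against 0.03 over all genes tested. Of the 5 higher, 4 (ITGA2, ITGA7, ITGB8 and LAMA1) passed the filter through P10 bESC alone, and of the 10 lower, 3 (ITGA1, ITGA11 and LAMA3) through fibroblasts alone, so that these 7 could be tested only because one group was high. ITGA3, ITGA5, ITGB1, ITGB5 and LAMB1 kept direction and call under all 13 alternatives in processing. ITGA1 and ITGA11 kept them under 11 and ITGA7, ITGB8 and LAMA1 under 10, and these were not tested when the group that brought them past the filter lost a library. The calls of ITGA2, ITGA8, ITGA9, LAMA3 and LAMA5 were lost under at least 1 alternative.

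Against blastocysts, P10 bESC had on scaled RPKM more of several chains, led by LAMA5 and ITGB8, and less ITGA5. Of the same 23 members, 7 were higher and 2 lower in P10 bESC, where 64.9% of all genes tested were called, 36.9% higher and 28% lower. Both shares were smaller among the members than among all genes tested. The higher ones were ITGA6, ITGA7, ITGB1, ITGB7, ITGB8, LAMA4 and LAMA5, and the lower ones ITGA5 and ITGAE. Of the 7 higher, 2 (ITGA7 and ITGB8) passed the filter through P10 bESC alone. The median log2 change was 0.92 over the members tested and 0.21 over all genes tested. This comparison shares its P10 libraries with the one against fibroblasts, and it depended more on scaling: on deposited RPKM, which moved the median of all genes tested to 1.43, 13 members were higher and 0 lower. ITGA6 and LAMA5 kept their call under all 13 alternatives. ITGB8 kept it under the 10 that tested it, which leave out those without a P10 library, since it passed the filter through P10 bESC alone; the calls of the other members were each lost under at least 1 alternative.

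**Figure D2:**
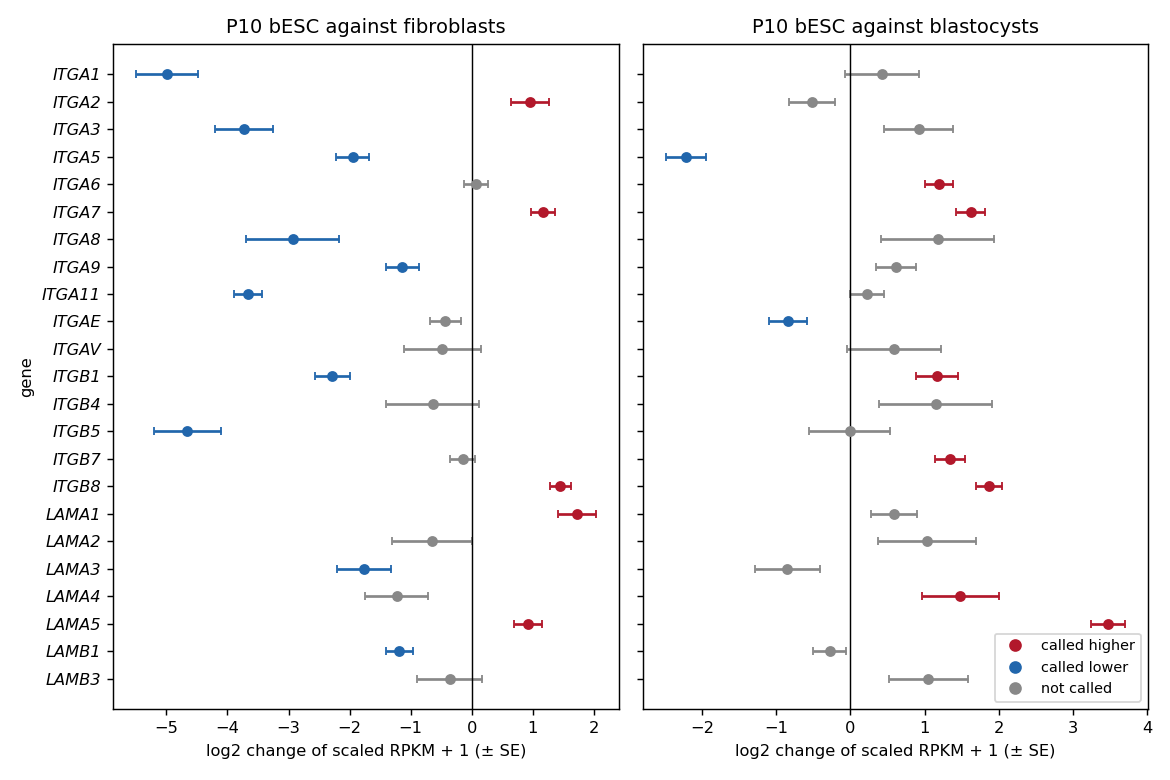
Log2 change (points) with its standard error (bars) of the 23 members tested, for P10 bESC against fibroblasts (left) and against blastocysts (right), 2 libraries a group; red is called higher, blue called lower and grey not called at an adjusted p of 0.05. ITGB8, ITGA7 and LAMA5 are red in both panels and ITGA5 is blue in both. ITGB8 and ITGA7 passed the filter through P10 bESC alone.

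ITGB1, the beta chain shared by most integrins that bind laminin, fibronectin and collagen, was the most abundant member in P10 bESC and in fibroblasts. It stood at 91.8 and 133 scaled RPKM in P10 lines A and B, 41.9 and 56.8 in blastocysts and 457 and 638 in fibroblasts. The 3 groups did not overlap. It was lower in P10 bESC than in fibroblasts (log2 change -2.28 ± 0.28, SE, limma, adjusted p = 0.00075) and higher than in blastocysts (1.17 ± 0.28, adjusted p = 0.00886). The second call was lost without blastocyst library A (adjusted p = 0.0604) and without P10 line B (adjusted p = 0.0543). ITGB1 alone made up 91.5% and 87.1% of the summed RPKM of the integrin beta chains in P10 lines A and B, 89.1% and 90.8% in blastocysts and 75.1% and 80.7% in fibroblasts.

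ITGB5 and ITGB8, beta chains that pair with ITGAV, went in opposite directions against fibroblasts. ITGB5, a vitronectin receptor chain, stood at 1.98 and 9.99 scaled RPKM in P10 lines A and B, 4.65 and 4.91 in blastocysts and 139 and 149 in fibroblasts. It was far below the fibroblasts in both P10 libraries (-4.66 ± 0.55, adjusted p = 0.000659), while the 2 lines lay on either side of the blastocysts (-0.01 ± 0.55, adjusted p = 0.986). ITGB8, whose integrin releases active TGF-beta from its latent form, stood at 2.90 and 2.88 scaled RPKM in P10 lines A and B, against 0.449 and 0.393 in fibroblasts. It was listed at 0 in blastocyst library A and at 0.127 in library B. ITGB8 passed the filter through P10 bESC alone, so that it could be tested only because that group was high. Both P10 libraries lay above all 4 others, with changes of 1.45 ± 0.17 against fibroblasts (adjusted p = 0.000656) and 1.87 ± 0.17 against blastocysts (adjusted p = 0.000138). ITGB6, another partner of ITGAV, reached at most 0.141 scaled RPKM, in blastocyst library B.

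ITGB7, known mainly from lymphocytes, stood at 2.03 and 1.89 scaled RPKM in P10 lines A and B, 0.280 and 0.0706 in blastocysts and 2.42 and 2.14 in fibroblasts. It was higher in P10 bESC than in blastocysts (1.34 ± 0.20, adjusted p = 0.00107), a call lost under quantile normalization (0.22, adjusted p = 0.335). ITGB4, the hemidesmosome chain that pairs with ITGA6, stood at 1.39 and 2.55 in P10 lines A and B, 0.186 and 0.455 in blastocysts and 10.1 and 0.838 in fibroblasts, and was called in neither comparison. The 2 fibroblast lines lay on either side of the P10 libraries, and ITGB4 was called lower than in fibroblasts without line B (-1.95, adjusted p = 0.00812), against 0.66 without line A (adjusted p = 0.161). Without either fibroblast library it was called higher than in blastocysts (adjusted p = 0.0103 and 0.0134).

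Of the alpha chains that bind laminin, ITGA6 was the most abundant in P10 bESC, at 41.7 and 35.3 scaled RPKM in lines A and B, against 15.4 and 16.8 in blastocysts and 39.9 and 33.4 in fibroblasts. P10 bESC and fibroblasts overlapped (0.07 ± 0.19, adjusted p = 0.795), and both P10 libraries lay above both blastocyst libraries (1.20 ± 0.19, adjusted p = 0.00155). ITGA3, a second laminin receptor chain, stood at 2.85 and 9.07 in P10 lines A and B, 3.01 and 1.69 in blastocysts and 93.8 and 70.6 in fibroblasts, and was lower in P10 bESC than in fibroblasts (-3.73 ± 0.47, adjusted p = 0.000864). Against blastocysts it was called only without P10 line A (1.63, adjusted p = 0.0118) and on deposited RPKM (1.91, adjusted p = 0.00619). The 2 laminin receptors thus split: ITGA6 stood 14.6 and 3.89 times as high as ITGA3 in P10 lines A and B and 5.13 and 9.94 times in blastocysts, against 0.426 and 0.474 times in fibroblasts. The blastocyst ratios divide by low values, ITGA3 at 0.858 and 0.48 deposited RPKM. ITGA7, the laminin receptor chain known from muscle, stood at 3.39 and 3.15 in P10 lines A and B, 0.343 and 0.434 in blastocysts and 1.07 and 0.729 in fibroblasts. It passed the filter through P10 bESC alone and could be tested only because that group was high. It was higher than in fibroblasts (1.17 ± 0.20, adjusted p = 0.00281) and than in blastocysts (1.62 ± 0.20, adjusted p = 0.000451), where quantile normalization ended the call (0.46, adjusted p = 0.0644).

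ITGA5, the alpha chain of the main fibronectin receptor, stood at 16.8 and 28.8 scaled RPKM in P10 lines A and B, 115 and 97.7 in blastocysts and 93.1 and 83.4 in fibroblasts. Both P10 libraries lay below all 4 others, with log2 changes of -1.95 ± 0.27 against fibroblasts (adjusted p = 0.00122) and -2.22 ± 0.27 against blastocysts (adjusted p = 0.000449). On deposited RPKM the second difference was -0.44 (adjusted p = 0.168), so it rests on the scaling of the blastocyst libraries. FN1, fibronectin itself, stood at 45.2 and 237 in P10 lines A and B, 1777 and 1700.0 in blastocysts and 414 and 1050.0 in fibroblasts. ITGAV, which binds vitronectin and other ligands with the RGD motif, stood at 19.2 and 24.7 in P10 lines A and B, 10.4 and 19.1 in blastocysts and 14.6 and 63.3 in fibroblasts and was called in neither comparison. It was called lower than in fibroblasts without line A (-1.50, adjusted p = 0.0304), against 0.52 without line B (adjusted p = 0.333), and higher than in blastocysts on deposited RPKM (2.17, adjusted p = 0.0151). ITGA8, which binds nephronectin, stood at 0.369 and 3.08 in P10 lines A and B, 0.0946 and 0 in blastocysts and 7.56 and 36.7 in fibroblasts. It was lower than in fibroblasts (-2.93 ± 0.76, adjusted p = 0.0168), a call lost without P10 line A (-2.13, adjusted p = 0.1), without fibroblast line B (-1.88, adjusted p = 0.0559) and when all genes were tested without a filter (-2.93, adjusted p = 0.0553).

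Of the collagen-binding chains, ITGA1 and ITGA11 were lower in P10 bESC than in fibroblasts and ITGA2 higher. ITGA1 and ITGA11 passed the filter through fibroblasts alone and ITGA2 through P10 bESC alone. Each could thus be tested only through the group that was higher in this comparison. ITGA1 stood at 0.0827 and 0.761 scaled RPKM in P10 lines A and B, 0 and 0.0494 in blastocysts and 25.2 and 72.7 in fibroblasts, and ITGA11 at 0.0548 and 0.363, 0.0456 and 0, and 12.9 and 15.5 in the same groups. Both lay far below the fibroblasts in P10 bESC, ITGA1 with a log2 change of -4.99 ± 0.50 (adjusted p = 0.000354) and ITGA11 with one of -3.66 ± 0.23 (adjusted p = 7.16e-05). ITGA2, which binds collagen and laminin, went the other way, at 1.65 and 2.29 in P10 lines A and B, 2.96 and 3.46 in blastocysts and 1.01 and 0.156 in fibroblasts. Its call against fibroblasts (0.95 ± 0.31, adjusted p = 0.0371) was lost in 7 alternatives, such as without fibroblast line B (0.54, adjusted p = 0.192) and under quantile normalization (0.33, adjusted p = 0.224). Against blastocysts it was not called (-0.51, adjusted p = 0.184), with 0.63 on deposited RPKM (adjusted p = 0.0618) and -1.07 under quantile normalization (adjusted p = 0.00409). ITGA10 stayed between 0.440 and 1.12 in all 6 libraries and was not tested. ITGA1 and ITGA2 lie next to each other in the gene order of the reference assembly ARS-UCD2.0, with 0 protein-coding genes between them, and were called in opposite directions against fibroblasts. As each passed the filter through a different group alone, nothing is read from that contrast.

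ITGA9, a receptor chain for tenascin-C, stood at 0.342 and 1.28 scaled RPKM in P10 lines A and B, 0.175 and 0.117 in blastocysts and 2.76 and 2.96 in fibroblasts. It was lower in P10 bESC than in fibroblasts (-1.14 ± 0.27, adjusted p = 0.0119), a call lost without P10 line A (-0.75, adjusted p = 0.073). In that same setting it was called higher than in blastocysts (0.99, adjusted p = 0.0213). ITGAE, which with ITGB7 binds E-cadherin, stood at 3.75 and 3.24 in P10 lines A and B, 7.69 and 6.44 in blastocysts and 4.31 and 5.93 in fibroblasts. Its lower level against blastocysts (-0.84 ± 0.25, adjusted p = 0.0241) turned round on deposited RPKM (0.58, adjusted p = 0.0452) and was lost without blastocyst library A or either P10 library (adjusted p = 0.0652 to 0.111).

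ITGB2 and the leukocyte integrin alpha chains that pair with it, ITGAL, ITGAM and ITGAD, were low and did not pass the filter. ITGB2 stood at 0.198 and 2.49 scaled RPKM in P10 lines A and B, 0 and 0.0635 in blastocysts and was listed at 0 in both fibroblast libraries. ITGAM stood at 0.0986 and 0.681 in P10 lines A and B and reached 0.0526 at most elsewhere in the 6 libraries. Line B was thus the higher library for both, and the blood marker sum moved with them, at 2.64 and 32.6 scaled RPKM in P10 lines A and B, 1.11 to 2.19 in blastocysts and 1.65 to 2.18 in fibroblasts. LYZ made up most of the sum in P10 bESC (2.32 and 31.6) and was the 1 of the 5 blood markers in these files to reach 1 RPKM in either line. The part of blood cells in the result was not tested. ITGAL stood at 0.0110 and 0.0643 in P10 lines A and B and 1.31 and 0.621 in blastocysts and was listed at 0 in fibroblasts. ITGA4, which pairs with ITGB1 or ITGB7, reached 0.776 and ITGAD 0.466 at most in these 6 libraries.

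LAMA5 was the most abundant laminin alpha chain in the bESC libraries. It stood at 21.6 and 26.6 scaled RPKM in P10 lines A and B, 1.16 and 1.36 in blastocysts and 11.8 and 12.6 in fibroblasts, and the 3 groups did not overlap. Against blastocysts it was higher in P10 bESC by 3.47 ± 0.23 (limma, adjusted p = 4.17e-05), the largest change of the 23 members in that comparison. Against fibroblasts it was higher by 0.92 ± 0.23 (adjusted p = 0.0137), a call lost without fibroblast line A (0.88, adjusted p = 0.0668) and without P10 line B (0.78, adjusted p = 0.0897). LAMA5 made up 80.3% and 78.9% of the summed laminin alpha RPKM in P10 lines A and B, 32.0% and 34.8% in blastocysts and 44.0% and 50.6% in fibroblasts. The blastocyst shares rest on low values, since no laminin alpha chain reached 1 deposited RPKM there.

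LAMA1, the alpha chain of the first laminin network of the embryo, stood at 3.23 and 1.68 scaled RPKM in P10 lines A and B and 1.84 and 0.755 in blastocysts, against 0.00687 and 0.0335 in fibroblasts. It passed the filter through P10 bESC alone and could be tested only because that group was high. P10 bESC and blastocysts overlapped (0.59 ± 0.31, adjusted p = 0.135), though not on deposited RPKM (3.24 and 1.68 in P10 lines A and B and 0.524 and 0.214 in blastocysts; 1.31, adjusted p = 0.00235). Both lay above the fibroblasts, P10 bESC by 1.72 ± 0.31 (adjusted p = 0.00398). With a pseudocount of 0.1 in place of 1 this change was 4.35, since the fibroblast values lie far under 1 RPKM. LAMA4, a chain of mesenchymal and vascular laminins, stood at 0.917 and 3.20 in P10 lines A and B, 0.0316 and 0 in blastocysts and 9.76 and 3.13 in fibroblasts. Its call against blastocysts (1.48 ± 0.52, adjusted p = 0.0426) was lost in 6 alternatives, without P10 line B among them (0.92, adjusted p = 0.22). Against fibroblasts it was called lower without line B (-1.94, adjusted p = 0.0228) and under quantile normalization (-1.27, adjusted p = 0.0491). LAMA2, the muscle laminin chain, stood at 1.18 and 2.19 in P10 lines A and B, 0.214 and 0.381 in blastocysts and 0.903 and 7.93 in fibroblasts and was called in neither comparison. It was called lower than in fibroblasts without line A (-1.76, adjusted p = 0.0104), against 0.46 without line B (adjusted p = 0.277), and higher than in blastocysts without either fibroblast library (1.03, adjusted p = 0.0163 and 0.0133). LAMA3, an epithelial chain, was listed at 0 in P10 line A and stood at 0.0311 in line B, against 0.389 and 1.42 in blastocysts and 4.33 and 1.23 in fibroblasts. It passed the filter through fibroblasts alone. It was lower in P10 bESC than in fibroblasts (-1.76 ± 0.44, adjusted p = 0.0147), and the change was about as large, though not called, without P10 line A (-1.73, adjusted p = 0.0723) or line B (-1.78, adjusted p = 0.0613).

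**Figure D3:**
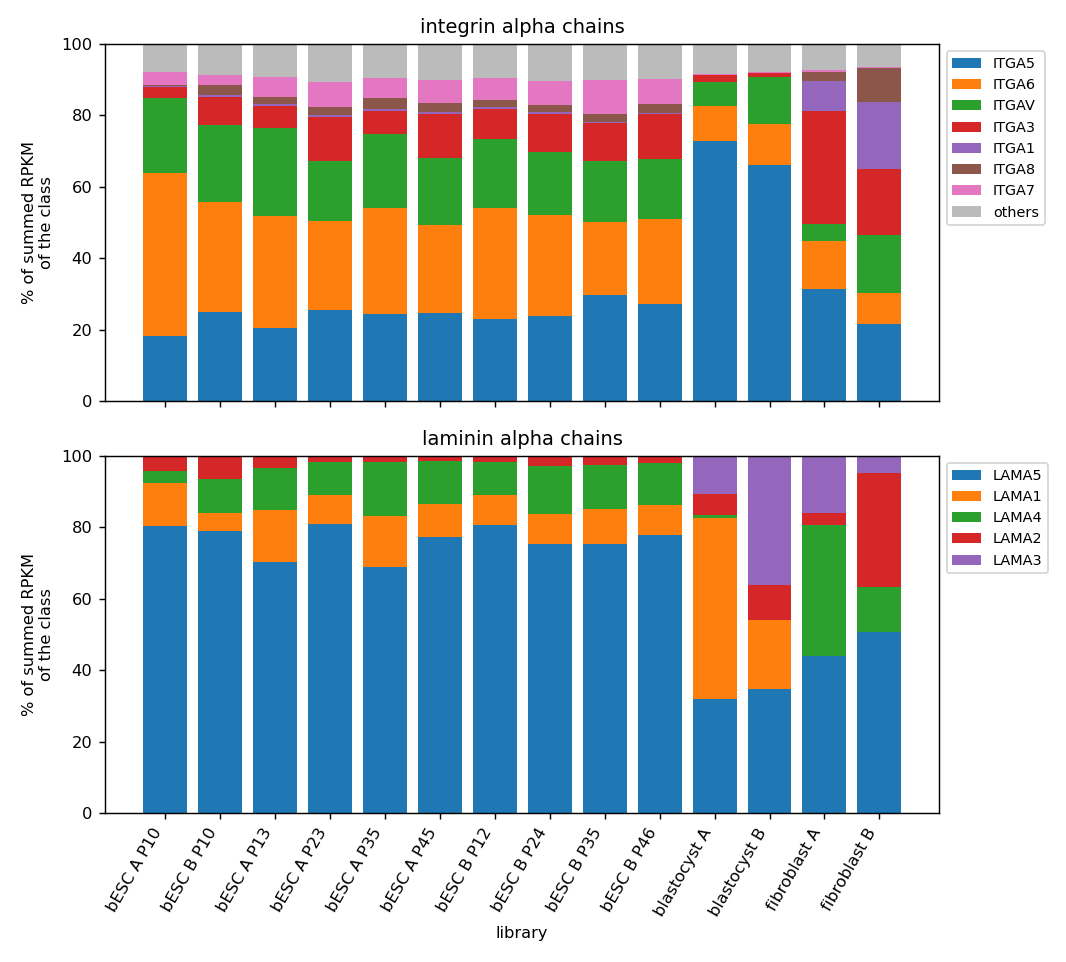
Stacked bars giving each chain's percent of the summed RPKM of its class, for the 16 integrin alpha chains (top, 7 named and the rest in grey) and the 5 laminin alpha chains (bottom), in the 14 libraries. LAMA5 fills 68.8% to 81.0% of each bESC bar in the lower panel, and ITGA5 fills 73.0% and 66.3% of the 2 blastocyst bars in the upper one.

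LAMB1, the common beta chain, stood at 31.8 and 46.7 scaled RPKM in P10 lines A and B, 46.3 and 48.0 in blastocysts and 83 and 95.4 in fibroblasts. It was lower in P10 bESC than in fibroblasts (-1.19 ± 0.22, adjusted p = 0.00447) and overlapped the blastocysts (-0.28 ± 0.22, adjusted p = 0.294), where deposited RPKM gave the opposite sign (1.46, adjusted p = 0.000749). The balance of the chains differed between the groups more than LAMB1 itself did. LAMB1 stood 1.47 and 1.76 times as high as LAMA5 in P10 lines A and B, 39.9 and 35.2 times in blastocysts and 7.04 and 7.56 times in fibroblasts. The blastocyst ratios divide by low values, LAMA5 at 0.331 and 0.386 deposited RPKM. The 5 laminin alpha chains together reached 26.9 and 33.7 scaled RPKM in P10 lines A and B, 3.63 and 3.92 in blastocysts and 26.8 and 24.9 in fibroblasts. LAMB3, the beta chain of epithelial laminins, stood at 0.389 and 2.07 in P10 lines A and B, was listed at 0 in both blastocyst libraries and stood at 3.38 and 0.598 in fibroblasts. LAMB4 reached 0.0273 at most in the 6 libraries.

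Some chains of epithelial laminins and hemidesmosomes were higher in fibroblast line A than in line B. LAMA3 was at 4.33 against 1.23 scaled RPKM, LAMB3 at 3.38 against 0.598 and ITGB4 at 10.1 against 0.838. COL17A1, of the hemidesmosome list, went the same way, at 9.11 against 0.374. Others were close in both lines: ITGA6 at 39.9 and 33.4, PLEC at 47.3 and 48.1, DST at 13.8 and 15.4 and CD151 at 183 and 170. The 6 keratinocyte markers summed to 10.5 scaled RPKM in fibroblast line A, with 3 at 1 RPKM or more and KRT1 and DSG3 listed at 0, and to 1.75 in line B, with 1 at 1 RPKM or more and KRT1 listed at 0. These markers are not particular to skin here, with sums of 66.8 and 68.9 in blastocysts. The part of keratinocytes in the difference between the fibroblast lines was not tested, and with 1 library a line that difference has no replicate check. Fibroblast line B had the higher ITGA1, ITGA8, ITGAV and LAMA2.

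LAMC1, the common gamma chain, appears in the P10, blastocyst and fibroblast files only as 2 copies with a suffix, which fall outside the set. The first copy stood at 20.6 and 27.1 scaled RPKM in P10 lines A and B, 40.9 and 47.4 in blastocysts and 45.8 and 61.0 in fibroblasts. The second stood at 9.61 and 10.8, 0.196 and 0.162, and 44.7 and 39.9 in the same groups. In P10 bESC against blastocysts the first copy was lower (-0.87 ± 0.23, adjusted p = 0.0133) and the second higher (3.24 ± 0.22, adjusted p = 4.79e-05). What part of the gene each covers is not given in the sources used here, so neither was read as the level of LAMC1. ITGA2B, whose symbol adds a letter to a number and so falls outside too, stood at 1.76 and 3.18 in P10 lines A and B, 1.41 and 1.44 in blastocysts and 0.453 and 0.329 in fibroblasts.

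Several members were lower in line A than in line B at P10. Lines A and B stood at 1.98 and 9.99 scaled RPKM for ITGB5 and at 0.369 and 3.08 for ITGA8. For ITGA3 they stood at 2.85 and 9.07, for LAMA4 at 0.917 and 3.20, and for LAMB3 at 0.389 and 2.07. Fibroblast markers moved the same way, with a sum of 107.8 in line A and 217 in line B. Their part in the difference was not tested, and with 1 library a line there was no test. LAMA1 went the other way, at 3.23 and 1.68. ITGB8, ITGB7, ITGA7 and ITGAE were close in the 2 lines.

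Blastocysts against fibroblasts, a comparison that shares libraries with both others, gave 2 members higher and 12 lower of 23, where 66.9% of all genes tested were called, 30.3% higher and 36.6% lower. The higher ones were ITGA2 (1.46 ± 0.31, adjusted p = 0.00496) and LAMA1 (1.13 ± 0.31, adjusted p = 0.0159), and neither was called on deposited RPKM (0.40, adjusted p = 0.205, and 0.42, adjusted p = 0.164). Both ITGA2 and LAMA1 passed the filter through P10 bESC alone, a group outside this comparison, and neither reached 1 deposited RPKM in a blastocyst or fibroblast library. LAMA1 was also lost without blastocyst library A (adjusted p = 0.0878) and without either fibroblast line (adjusted p = 0.0698 and 0.0607). The 12 lower ones kept their call under every alternative that tested them, and 2 of these, ITGA1 and ITGA11, passed the filter through fibroblasts alone. They were ITGA1, ITGA3, ITGA6, ITGA8, ITGA9, ITGA11, ITGB1, ITGB5, ITGB7, LAMA4, LAMA5 and LAMB1, led by ITGA1 with a log2 change of -5.42 ± 0.50 (adjusted p = 0.000129) and followed by ITGB5 at -4.65 ± 0.55 (adjusted p = 0.00037) and ITGA3 at -4.65 ± 0.47 (adjusted p = 0.000188). ITGA5 was not called (0.26 ± 0.27, adjusted p = 0.413; on deposited RPKM -1.27, adjusted p = 0.00426). It was the main alpha chain of the blastocysts, at 73.0% and 66.3% of the class, and held 31.4% and 21.6% in fibroblasts. Summed over all 16 alpha chains, integrin alpha RPKM was 3.77 and 2.60 times ITGB1 in blastocysts and 0.650 and 0.605 times in fibroblasts, beside 0.996 and 0.863 times in P10 lines A and B.

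In the later passages the set kept the same leading chains. Across the 8 libraries ITGB1 ranged from 119 to 190.2 scaled RPKM, LAMB1 from 41.0 to 53.7, ITGA5 from 19.9 to 33.5, ITGA6 from 23.1 to 31.6 and LAMA5 from 18.1 to 25.5. LAMC1 and LAMB2, named in these files, ranged from 21.4 to 25.5 and from 8.60 to 10.5. LAMC3 reached at most 0.227 and LAMA3 0.0279. By level the leading laminin chains in both lines were LAMA5, LAMB1 and LAMC1, and LAMA5 held 68.8% to 81.0% of the laminin alpha RPKM over all 10 bESC libraries. ITGA6 was the first alpha chain in 4 of these 8 libraries and ITGA5 in the others, and neither held more than 31.3% of the class.

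No member passed the test for line or passage among the later libraries. Of the 21 members tested with limma, 0 were called for line A against line B, where 0.00782% of all 12785 genes tested were called, and 0 had an unadjusted p under 0.05. For the slope with passage 0 members were called, with 0% of all genes tested called, and 3 members had an unadjusted p under 0.05: ITGA5 at 0.12 ± 0.04 log2 per 10 passages, ITGA8 at 0.11 ± 0.04 and LAMB1 at 0.08 ± 0.03 (adjusted p = 0.943 each). For the difference of slopes between the lines 0 members were called, again with 0% of all genes tested, and 0 had an unadjusted p under 0.05. The same p was below 0.05 for 826, 579 and 84 of all genes tested. ITGAE was the one member tested whose lines did not overlap, and only just, at 3.493 to 3.677 scaled RPKM in line A and 2.864 to 3.492 in line B (0.13 ± 0.08, adjusted p = 0.724). ITGA11, which was under the filter and not tested, did not overlap either, at 0.239 to 0.638 in line A and 0.872 to 0.977 in line B. The share of all genes tested whose lines did not overlap was not counted, so neither is read as a difference between the lines.

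Within line A, P13 and P35 stood apart from P23 and P45 in several members. ITGB1 was at 119 and 138 scaled RPKM at P13 and P35 and at 190.2 and 176 at P23 and P45, and ITGA3 at 5.98 and 6.46 and at 12.4 and 12.6. LAMA5 was also lower at P13 and P35 (18.1 and 18.7) than at P23 and P45 (25.5 and 22.7), and LAMA1 higher (3.73 and 3.90, against 2.55 and 2.76). The share of all genes tested with this split was not counted, so it is not read as a trait of the members. The trophectoderm marker sum, made up mostly of KRT8 and KRT18, split these libraries in the same way, at 225 and 316 against 778 and 646 scaled RPKM. In line B, ITGB1 and LAMA5 were lowest at P35 (146 and 20.7), where the sum was 625, beside 548 to 826 at the other passages. ITGB1 and the sum were both highest at P46 (179.5 and 826). The part of these markers in the pattern was not tested. ITGB8 varied most among the members tested in line A, at 2.40, 0.594, 0.961 and 0.609 in order of passage (coefficient of variation 74.9%), while ITGAE varied least (2.27%).

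Among the later libraries, ITGB2 and ITGAM, chains of a leukocyte integrin, were highest in line B at P35. ITGB2 stood at 0.407, 0.506, 1.18 and 0.496 scaled RPKM at P12, P24, P35 and P46, and ITGAM at 0.173, 0.279, 0.760 and 0.205. LYZ was highest there too, at 5.76, 10.5, 33.4 and 11.1 in the same order, and the sum of the 7 blood markers was 9.65, 13.8, 38.1 and 14.5, with 2 of them at 1 RPKM or more in each library. Of the other chains known from leukocytes, ITGAD and ITGB7 were also highest of line B at P35. ITGAD was at 0.243, beside 0.0883 to 0.167 at the other passages, and ITGB7 at 2.08, beside 1.17 to 1.87. ITGAL, ITGA4 and ITGAE did not stand out. ITGAL was at 0.0440, beside 0.0426 at P24, ITGA4 at 0.771, beside 0.933 at P24, and ITGAE at 3.424, beside 3.492 at P46. Of the other blood markers, PTPRC, SPI1 and CD68 were also highest of line B at P35. PTPRC was at 0.1996, beside 0.06206 to 0.116 at the other passages. SPI1 was at 0.6626, beside 0.2898 to 0.4235, and CD68 at 3.121, beside 2.294 to 2.818. CD3E, CD14 and CD79B were not highest there. CD3E was at its lowest of the line at P35 (0.0214). CD14 was at 0.179, beside 0.196 at P24, and CD79B at 0.4827, beside 0.5732 at P12. ITGA7 also peaked in that library, at 10.9 against 5.77 to 7.63 in the other 3. The part of blood cells in these values was not tested.

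**Figure D4:**
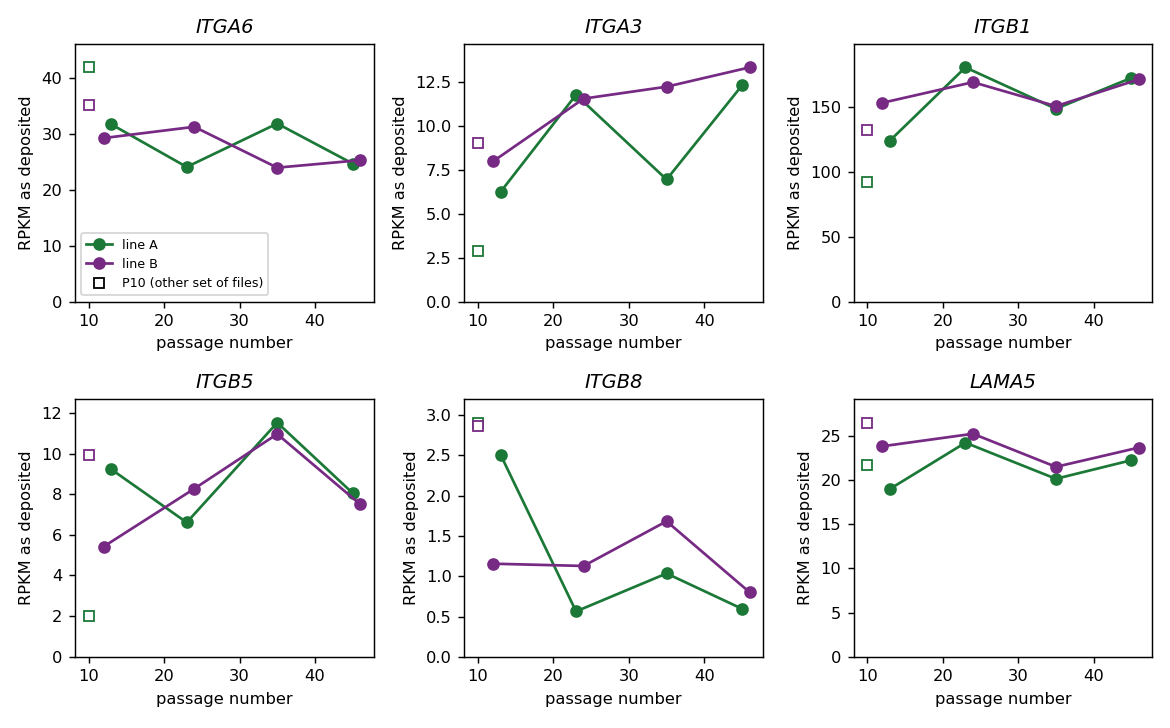
Deposited RPKM of 6 members against passage number in lines A and B; open squares are the P10 libraries, which come from the other set of files, and lines join the later libraries. Both open squares lie above every later point for ITGA6 and ITGB8, and each lies below every later point of its own line for ITGB1.

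The P10 and later libraries lie in files made from different feature lists, so passage and file set cannot be told apart and no test was made. On deposited RPKM, 12 of the 20 line A members at 1 RPKM or more at P10 or over the later median lay below all 4 later libraries at P10, where 46% of all such names did, and 3 lay above, where 24.7% did. In line B 5 of 22 lay below, where 41.1% did, and 9 above, where 32.5% did. ITGA6 was above the later range in both lines, at 41.9 against 24.1 to 31.8 in line A and 35.2 against 23.9 to 31.2 in line B. ITGB8 was above it as well, at 2.91 against 0.564 to 2.51 and 2.87 against 0.802 to 1.68. LAMA2 was the third, at 1.18 against 0.443 to 0.889 and 2.18 against 0.482 to 0.959. ITGB1 was below in both lines, at 92.2 against 124 to 181 in line A and 133 against 151 to 171 in line B, as were ITGA2, ITGA7 and ITGB4. ITGA3 and ITGB5 were below in line A alone (2.87 against 6.25 to 12.3 and 1.99 against 6.61 to 11.5) and within the range in line B.

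Genes that work with integrins and laminins were read from 6 lists, against 27.2% higher and 25.1% lower of all genes tested in P10 bESC than in fibroblasts and 36.9% higher and 28% lower than in blastocysts, with medians of 0.03 and 0.21. Calls in these lists are given for the main processing alone, on scaled RPKM. Scaling multiplied blastocyst values by 3.504 and 3.53, so calls against blastocysts, the lower ones above all, may not hold on deposited RPKM. Of 15 other basement membrane genes tested, 4 were higher and 6 lower in P10 bESC than in fibroblasts, with a median change of -0.83. The 4 higher ones were COL4A5, COL4A6, COL18A1 and AGRN, agrin. COL4A6, a type IV collagen chain, stood at 13.8 and 16.6 scaled RPKM in P10 lines A and B, against 0.0630 and 0 in fibroblasts, and COL18A1 at 58.0 and 80.5 against 0.0820 and 0.858. NTN4, a netrin that binds laminin, stood at 1.26 and 0.995 in P10 lines A and B against 69.1 and 86.0 in fibroblasts. Against blastocysts 12 of the 15 were higher and 1, NID2, lower, with a median of 3.64. FBLN1 stood at 35.5 and 51.8 in P10 lines A and B against 0.0771 and 0 in blastocysts, COL15A1 at 39.4 and 32.3 against 0.343 and 0.0338, and COL4A6 was listed at 0 in both blastocyst libraries.

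Of 13 other integrin ligands tested, 1, ICAM1, was higher and 9 lower in P10 bESC than in fibroblasts (median -3.47), and 7 were higher and 1 lower than in blastocysts (median 1.96). The lower ones against fibroblasts included THBS1, a thrombospondin (-6.38 ± 0.45, adjusted p = 0.0001), TNC, tenascin-C (-8.27 ± 0.74, adjusted p = 0.000229), and MFGE8, a ligand of ITGAV integrins (-4.41 ± 0.29, adjusted p = 8.51e-05). Against blastocysts THBS1 was higher by 4.29 ± 0.45 (adjusted p = 0.000238), followed by ICAM1 and FBN1. FN1 was the one ligand lower than in blastocysts (-4.05, adjusted p = 0.0033).

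Of 9 laminin receptors that are no integrins, 1 was higher and 3 lower in P10 bESC than in fibroblasts, and 4 were higher and 1 lower than in blastocysts. DMD, dystrophin, was the one higher than in fibroblasts (2.79 ± 0.26, adjusted p = 0.000279), and the sarcoglycans SGCB, SGCD and SGCE were lower. On scaled RPKM, SGCB, SGCE, RPSA and BCAM were higher than in blastocysts and UTRN, utrophin, lower. Of 24 genes of integrin activation and the adhesion complex, 1, TLN2, was higher and 13 lower than in fibroblasts, and 10 were higher and 7 lower than in blastocysts, a share near the 64.9% called of all genes tested. KANK2, NEDD9 and ILK had the smallest adjusted p against fibroblasts, each lower, with ILK, a kinase-like adaptor at the integrin tail, at 41.1 and 48.1 in P10 lines A and B against 205 and 193 in fibroblasts. FYN, FLNA and BCAR1 had it against blastocysts, each higher, with FLNA, filamin A, at 132 and 140 in P10 lines A and B against 7.38 and 4.38.

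Of 5 hemidesmosome genes and integrin partners tested, 0 were higher and 5 lower in P10 bESC than in fibroblasts, and 1 was higher and 2 lower than in blastocysts. CD151, a tetraspanin that binds laminin-receptor integrins, stood at 5.51 and 6.01 scaled RPKM in P10 lines A and B, 26.1 and 15.9 in blastocysts and 183 and 170 in fibroblasts. On scaled RPKM it was lower in both comparisons, and the call against blastocysts was not checked on deposited RPKM. The other genes lower than in fibroblasts were PLEC, DST, BSG and SLC3A2. Against blastocysts BSG was lower and PLEC higher, again on scaled RPKM. Of 5 proteases that cut laminins or their partners, 1 was higher and 4 lower than in fibroblasts, and 5 were higher than in blastocysts. MMP2, a gelatinase, stood at 67.5 and 113 in P10 lines A and B, 0.249 and 0.0600 in blastocysts and 1370.0 and 1399 in fibroblasts. ADAMTS2, MMP14 and BMP1 were also lower than in fibroblasts and higher than in blastocysts, and TLL2 was higher in both comparisons. The genes of these lists named beyond the 3 with the smallest adjusted p per list were chosen after their values were seen.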

How the data were processed

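Total RNA was sequenced after TruSeq library preparation, per the labels' protocols. The authors deposited 1 file of RPKM values per library, without read counts; the genome build UMD3.1 and edgeR appear in the submitters' processing notes without a role or version, and no aligner or annotation is given in the sources used here. The 6 P10, blastocyst and fibroblast files share 1 feature list and the 8 later files another, and tests were made within a set only. Of 23231 features in the first set, 26 unreadable names, 25 dates and 21 blank values were left out. In the later set 26 names were restored from other files.

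RPKM were divided by median-of-ratios factors and tested as log2(scaled RPKM + 1), a scale that shrinks changes of genes that are low. The filter was 1 deposited RPKM in 2 libraries of a set. The fit was limma's (version 3.58.1, R 4.3.3), two-sided, moderated by empirical Bayes with a trend. A call was a Benjamini-Hochberg adjusted p under 0.05 over all genes tested. P10, blastocysts and fibroblasts formed 3 groups with 1 common spread. The later libraries were fitted with line and passage number, and again with their interaction. The fits were tested on simulated data. Files were read and figures drawn with Python 3.11.15, pandas 2.3.3, numpy 2.4.6 and matplotlib 3.10.9.

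Every member at 1 RPKM or more in 2 libraries of a set was named with its values, and of each other list up to 3 genes with the smallest adjusted p per comparison. The members and lists were chosen with earlier results of these data known. Symbols of 34 of the 35 members matched the RefSeq table of ARS-UCD2.0, which was used for names and gene order only. Alternatives were deposited RPKM without scaling, quantile normalization, a pseudocount of 0.1, no filter, a filter of 5 RPKM, names shared by both sets, a replicate block, and leaving out each library. Values of 1 member are not reported here.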

Additional observations from a re-analysis of the deposited data

Results flagged for a closer look

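In groups of 4 later libraries, 3 of 70 group values checked had 1 library far from the other 3, where chance gives about 1 in 20. ITGB2 in line B was at 1.18 scaled RPKM at P35, against 0.407 to 0.506 at the other passages. ITGB6 was at 0.0106 scaled RPKM in line A at P13 and at 0.0323 in line B at P35 and was listed at 0 in the other 6 libraries; with 3 libraries at 0, any value above 0 counts as far from them.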

How the results depend on the processing

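Counts of members called in P10 bESC against fibroblasts were 5 higher and 10 lower. A filter of 5 RPKM gave 1 higher, and leaving out each library gave 0 to 4 higher and 7 to 10 lower, with 1 higher without P10 line A and 0 without P10 line B. Against blastocysts the counts were 7 higher and 2 lower. They were 13 and 0 on deposited RPKM, 4 and 4 under quantile normalization, 3 and 1 with a filter of 5 RPKM, and 3 to 9 and 1 to 2 with each library left out, with 3 higher without P10 line B. In blastocysts against fibroblasts the counts were 2 higher and 12 lower. Deposited RPKM gave 0 and 19, a filter of 5 RPKM 0 higher, and leaving out each library 0 to 2 higher, with 0 without either P10 library. Only members tested under a stricter filter could be called there. In the same way, ITGA2, ITGA7, ITGB8 and LAMA1 fell under the filter and were not tested when a P10 library was left out. So did ITGA1, ITGA11 and LAMA3 when a fibroblast library was left out. The cause of the other shifts was not tested. Turned in direction, among changes called in at least 1 of the 2 settings compared, were ITGAE (0.58, adjusted p = 0.0452) and LAMB1 (1.46, adjusted p = 0.000749) in P10 bESC against blastocysts and ITGA5 (-1.27, adjusted p = 0.00426) and ITGAE (-0.80, adjusted p = 0.0139) in blastocysts against fibroblasts, all on deposited RPKM, and ITGB5 in P10 bESC against blastocysts without P10 line A (0.94, adjusted p = 0.0196), where leaving out line B gave -0.95 (adjusted p = 0.0233). The median of all genes tested on deposited RPKM was 0.23 for P10 bESC against fibroblasts, 1.43 against blastocysts and -1.15 for blastocysts against fibroblasts. The letters of the titles did not pair the samples (correlations of deviations 0.162, -0.0766 and -0.0992); with a replicate block on them the counts were 4 higher and 10 lower, 6 and 2, and 2 and 13 in the same order of comparisons, and a block on passage stage left the later lines at 0 members called. Among the later libraries 0 members were called for line, slope or slope difference under every alternative run. With a library left out its group has 1 library, which is taken to vary like the others.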
